A study of Aethionema arabicum with 12 samples.

Results

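The models described here encode leucine-rich repeat (LRR) receptor kinases, taken as the Aethionema arabicum gene models whose matching Arabidopsis thaliana gene has a description holding both "leucine-rich" and "kinase". Of the 23594 models in the deposited table, 180 had such a description, and 1 of them was set aside because of its Arabidopsis locus. The other 179 models matched 128 Arabidopsis loci. Models with at least 1 CPM (counts scaled to library size, TMM-scaled where values are given) in at least 3 of the 12 libraries were tested, which left 125 of the 179, on 110 loci. Of the 54 that were not tested, 40 had 0 counts and 14 had at most 90 counts summed over all libraries. Of the 125, 1 had fewer than 3 TUR libraries at this level and 6 had fewer than 3 such CYP libraries, so that they passed through the accession where they are high, and their direction between accessions was set by the filter. Of the models without counts, 18 matched a single locus, AT1G51800 (IOS1, an immune LRR kinase of Arabidopsis).

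RNA had been sequenced from intact imbibed seeds, not yet germinated, of 2 wild-type accessions of this small crucifer. CYP is the accession from Cyprus and TUR the Turkish line ES1020. The 4 groups were CYP seeds in light, TUR seeds in light, CYP seeds in darkness and TUR seeds in darkness, each with 3 libraries, each held for 23 h, the light groups in white light at 100 µmol m-2 s-1. Both accessions were thus compared with each other under light and in darkness, and light with darkness within each accession. The labels do not say that the libraries of a group came from separate seed batches, so the p-values measure the spread between these libraries, which may be technical.

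LRR receptor kinases sit in the plasma membrane. The repeats outside the cell bind a ligand, often a secreted peptide, and the kinase inside passes the signal on, usually together with a smaller coreceptor kinase that binds the same ligand. In Arabidopsis, family members set the size of stem cell pools and the pattern of stomata and vascular tissue, control growth through peptide hormones and auxin, and detect microbes. Gene names and roles given below are those of the matching Arabidopsis gene.

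Library totals ran between 7099578 and 13953792 counts. CYP dark replicate 3 had the smallest total and stood apart from the other libraries on the third principal component, which held 4.51% of the variance of all tested models. Counts of called models are given with and without it below. Whole seeds hold the embryo, the endosperm and the seed coat, and the labels name no dissection. Of the lists of marker genes, the 4 tested models of mature seed genes (CRU1, matched by 2 models, OLEO1 and EM1) summed to between 6365 and 7226 CPM in CYP light and 2252 to 4054 CPM in TUR light libraries, and to between 4429 and 7004 CPM in CYP dark and 1849 to 3315 CPM in TUR dark libraries, and all 4 were called higher in CYP under both conditions. The 4 models of the growing embryo axis and epidermis summed to between 118 and 124 CPM in CYP light and 324 to 480 CPM in TUR light libraries, and to between 327 and 374 CPM in CYP dark and 846 to 981 CPM in TUR dark libraries. The seed coat list, with TT12 and BAN at or near 0, summed to between 47.2 and 49.7 CPM in CYP light and 47.5 to 61.0 CPM in TUR light libraries, and to between 37.4 and 48.1 CPM in CYP dark and 46.7 to 55.7 CPM in TUR dark libraries. Of its 4 tested models, PER36 was called higher and MUM4 lower in CYP in both conditions, and the other 2 were not called. Between light and darkness, 2 were called higher in light and MUM4 lower in CYP, and 1 higher in TUR. Of the endosperm list only NCED6 was tested, at a mean of 10.8 CPM in CYP light, 2.74 CPM in TUR light, 19.4 CPM in CYP dark and 12.0 CPM in TUR dark seeds, and it was called higher in CYP in both conditions and lower in light in both accessions. ZOU was at 0 in every library. Of the embryo-axis list, GASA4 and EXPA2 carried the sum in TUR light, TUR dark and CYP dark seeds. In CYP light seeds ATML1 held most of it, with 2513 counts against 1377 for GASA4 and 388 for EXPA2. GASA4 and EXPA2 were called lower in CYP in both conditions and lower in light in both accessions. The epidermal PDF1 was called lower in CYP in light, was not called between accessions in darkness (means of 57.8 CPM in CYP and 50.4 CPM in TUR) and was lower in light in both accessions, and ATML1 was called in none of these. Of the mature seed models, OLEO1 and EM1 were called higher in light in CYP, the 2 CRU1 models were not, and none was called in TUR. The part of these markers in the results below was not tested.

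Most LRR receptor kinases that differed between the accessions were lower in CYP seeds. In light, 74 of the 125 models were called lower in CYP than in TUR and 10 higher, at an adjusted p under 0.05 in edgeR's quasi-likelihood test. Over all 15671 tested models, 27.8% were called lower and 24.9% higher in that comparison, against 59.2% and 8.0% of the receptor kinases. In darkness, 59 receptor kinases were called lower in CYP and 11 higher, where 22.1% and 22.4% of all tested models were called. The median log2 fold change, CYP over TUR, was -0.49 for the receptor kinases and -0.02 for all tested models in light, and -0.29 and 0.00 in darkness. Without CYP dark replicate 3, the counts were 76 lower and 11 higher in light, and 59 lower and 6 higher in darkness. Without the 7 models whose direction the filter set, 69 of 118 were lower and 9 higher in light, and 54 lower and 10 higher in darkness. In bulk seeds, fewer cells of a type and less RNA per cell cannot be told apart.

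**Figure D1:**
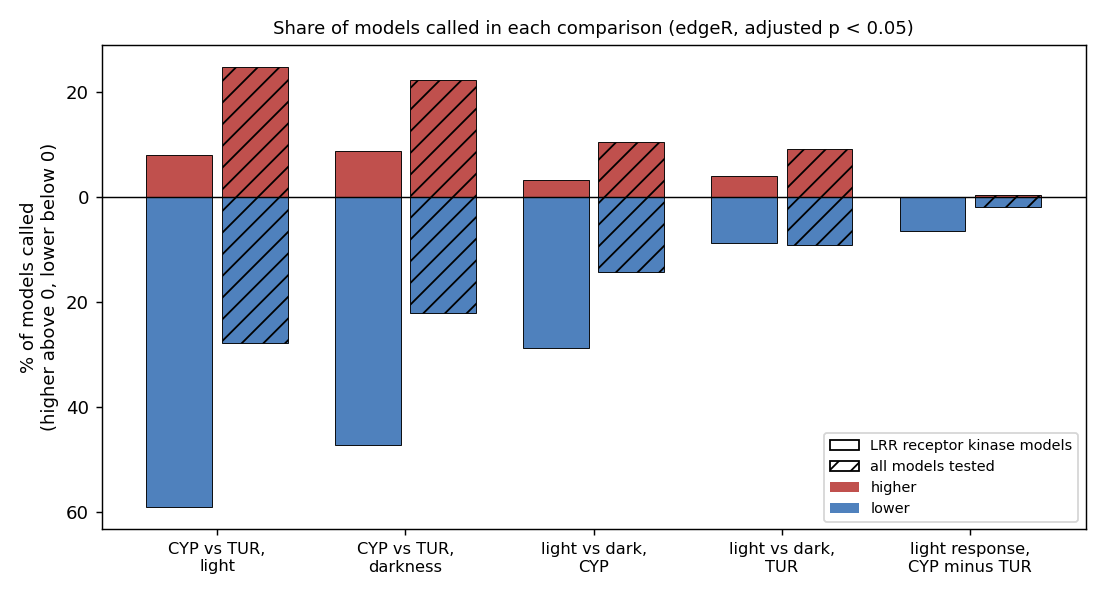
Share of LRR receptor kinase models (plain bars, 125 models) and of all tested models (hatched bars, 15671 models) called higher (above 0) or lower (below 0) in each of the 5 comparisons, in percent of the models tested, by edgeR at an adjusted p under 0.05. The plain bars reach furthest below 0 in both accession comparisons, at 59.2% in light and 47.2% in darkness, against 27.8% and 22.1% of all tested models.

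The accession differences were largely shared by both conditions. 56 receptor kinases were called lower in CYP in light and in darkness, where 18.6% of all tested models were, and 5 were called higher in both, where 17.7% of all tested models were. A further 18 were called lower and 5 higher in light alone, where 9.18% and 7.26% of all tested models were. In darkness alone 3 were lower and 6 higher, where 3.43% and 4.72% of all tested models were, and 32 were called in neither. No receptor kinase was called in opposite directions under the 2 conditions. In light, 40 models were called lower and 3 higher by at least 2-fold, where 10.6% and 5.9% of all tested models were. In darkness, 22 were lower and 3 higher by that much, where 7.86% and 5.26% of all tested models were. The counts by 2-fold and those called in both conditions included models whose direction the filter set, and were not repeated without them. AA16G00122, AA96G00003 and AA22G00065 were among the models lower by at least 2-fold in both conditions, and AA123G00022 was among those higher. Summed over the 125 models, the level was between 2302 and 2469 CPM in CYP light, 3557 and 3746 CPM in TUR light, 2507 and 2968 CPM in CYP dark, and 3361 and 3783 CPM in TUR dark libraries. Every CYP library had a lower sum than every TUR library. Without the 2 models matching AT3G53590, described below, the sums still did not overlap within a condition, at 2262 to 2431 CPM in CYP light against 3194 to 3451 CPM in TUR light, and at 2476 to 2924 CPM in CYP dark against 3084 to 3468 CPM in TUR dark libraries. Of the receptor kinases 84 were called in either direction in light, where 52.7% of all tested models were, and all 84 had CYP and TUR libraries that did not overlap, as had 97.9% of all called models. In darkness 70 were called, where 44.5% of all tested models were, and 65 of them did not overlap, a share of 92.9%, against 93.3% of all called models.

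**Figure D2:**
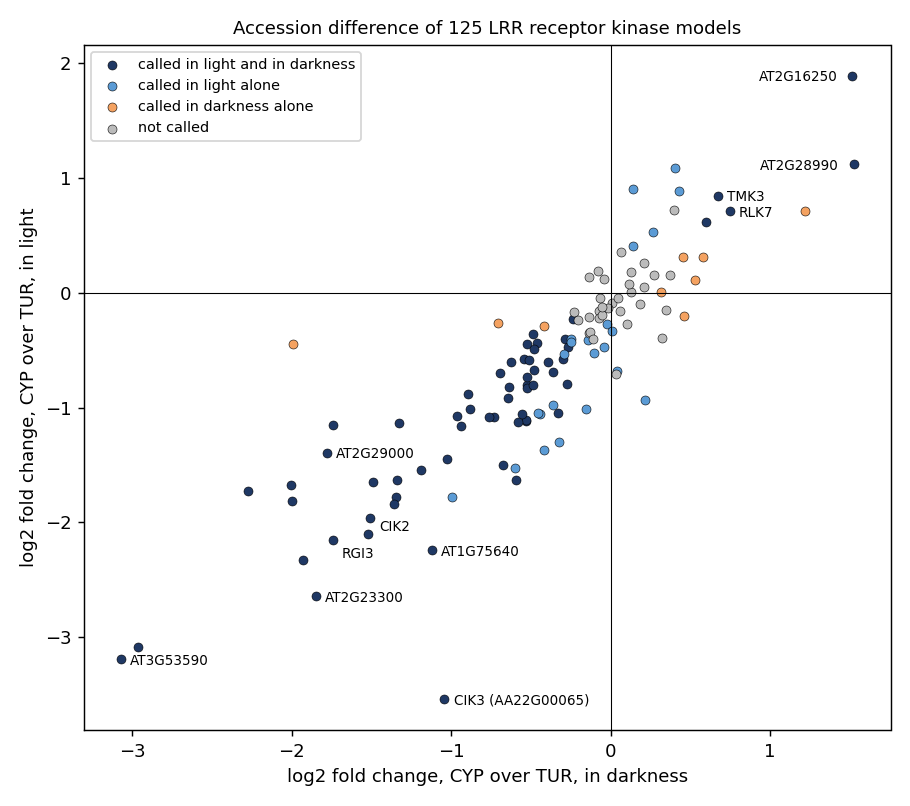
Log2 fold change, CYP over TUR, of the 125 tested LRR receptor kinase models in darkness (horizontal) and in light (vertical), 1 point a model, coloured by the conditions in which it was called. Most points lie in the lower left, lower in CYP under both conditions, where 56 models were called in both.

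LRR receptor kinase models were longer than the rest, with a median of 3195 bases (range 369 to 13775) against 2076 bases over all tested models. Length moved slightly with the accession difference: among all 2457 tested models over 4000 bases, 33.6% were called lower in CYP in light and 26.7% in darkness. Of the 29 receptor kinases of that length, 17 were called lower in light and 16 in darkness. Above 2000 and up to 3000 bases, 21 of 36 receptor kinases were called lower in light and 15 in darkness, where 27.6% and 21.0% of all models of that length were.

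Averaged over both conditions, the 2 largest differences belonged to AA62G00064 and AA62G00065, which both match AT3G53590 and carry consecutive numbers, so that they may be parts of 1 gene. AA62G00064 had 27.9, 28.3 and 28.3 CPM in CYP light libraries and 288, 219.9 and 263 CPM in TUR light libraries. In darkness it had 22.1, 21.3 and 30.6 CPM in CYP and 226, 189 and 202 CPM in TUR libraries. Every CYP library was far below every TUR library, 9.13-fold lower in light and 8.41-fold lower in darkness in the fit (adjusted p = 1.6e-12 and 4.21e-12, edgeR). AA62G00065 followed it, with log2 fold changes of -3.09 ± 0.16 (SE) in light and -2.97 ± 0.17 in darkness. Neither model was called between light and darkness in either accession.

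Among models with a group mean of at least 5 CPM, next came AA46G00205, matching AT2G23300, a receptor kinase with no role assigned here. It had 1.99, 2.91 and 1.83 CPM in CYP light and 13.6, 14.3 and 13.9 CPM in TUR light libraries, against 4.69, 4.91 and 6.84 CPM in CYP dark and 21.9, 18.2 and 18.0 CPM in TUR dark libraries. The groups did not overlap, and the model was lower in CYP, with log2 fold changes of -2.64 in light and -1.85 in darkness (adjusted p = 1.83e-09 and 8.97e-08, edgeR). Of the remaining models with no role given, AA32G00932 (AT2G27060) was lower in CYP, with log2 fold changes of -1.96 ± 0.14 in light and -1.51 ± 0.15 in darkness. AA57G00464 (AT4G22730) differed by -1.84 ± 0.22 and -1.36 ± 0.25, and AA31G00388 (AT1G75640) by -2.24 ± 0.21 and -1.12 ± 0.19, in light and in darkness. Libraries of the accessions did not overlap for any of these 3.

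Receptors of tissue patterning formed a list of 12 tested models, of which 9 were lower in CYP in light and 5 in darkness, and none was higher. Over all tested models 27.8% were lower and 24.9% higher in light, and 22.1% lower and 22.4% higher in darkness, and over all tested receptor kinases 59.2% were lower in light and 47.2% in darkness. The median log2 fold change of the list was -0.63 in light and -0.27 in darkness. CLV1 (AA31G00373), which limits the stem cell pool of the shoot tip by sensing the peptide CLV3, had 7.80, 7.53 and 7.61 CPM in CYP light and 22.6, 22.7 and 21.8 CPM in TUR light libraries. In darkness CLV1 had 9.49, 8.85 and 10.8 CPM in CYP and 23.8, 21.6 and 20.7 CPM in TUR libraries. The level in CYP was 2.92-fold lower in light and 2.28-fold lower in darkness, with no overlap (adjusted p = 4.78e-09 and 2.86e-07, edgeR). BAM1 (AA4G00290), a relative of CLV1 that binds similar peptides, was also lower in both, at 66.3 ± 2.50 CPM in CYP light against 145 ± 12.0 in TUR light, and 123 ± 18.8 in CYP dark against 184 ± 27.5 in TUR dark seeds (SD, n = 3 each). BAM3 (AA57G00268), another relative, was lower in CYP in light (-1.05 ± 0.19) and was not called in darkness (-0.46 ± 0.19, adjusted p = 0.0606, edgeR).

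EMS1 (AA44G00009), known from anther cell fate, was scarce in every group, at 0.446 ± 0.059 CPM in CYP light against 1.41 ± 0.401 in TUR light and 0.62 ± 0.327 in CYP dark against 2.60 ± 0.608 in TUR dark seeds, and lower in CYP under both conditions. No CYP library reached 1 CPM, so EMS1 was tested through its TUR libraries alone and its direction was set by the filter. PXY (AA5G00144), the receptor that keeps the vascular cambium dividing, was lower in CYP in light (log2 fold change -0.68), a call lost without TUR light replicate 3 (adjusted p = 0.0519), and near equal in darkness at 0.04. ERECTA (AA32G01037), which acts in stem growth and stomatal spacing, was called lower in CYP in light by a small difference (-0.27 ± 0.11), and leaving out any of 9 single libraries ended that call. The locus GSO1, needed for a tight embryo cuticle in Arabidopsis, was matched by 3 tested models, which differed among themselves. AA6G00135 was lower in CYP, with log2 fold changes of -0.83 in light and -0.52 in darkness, whereas AA31G00639 (-0.09 and 0.01) and AA57G00254 (-0.34 and -0.13) were not called.

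**Figure D3:**
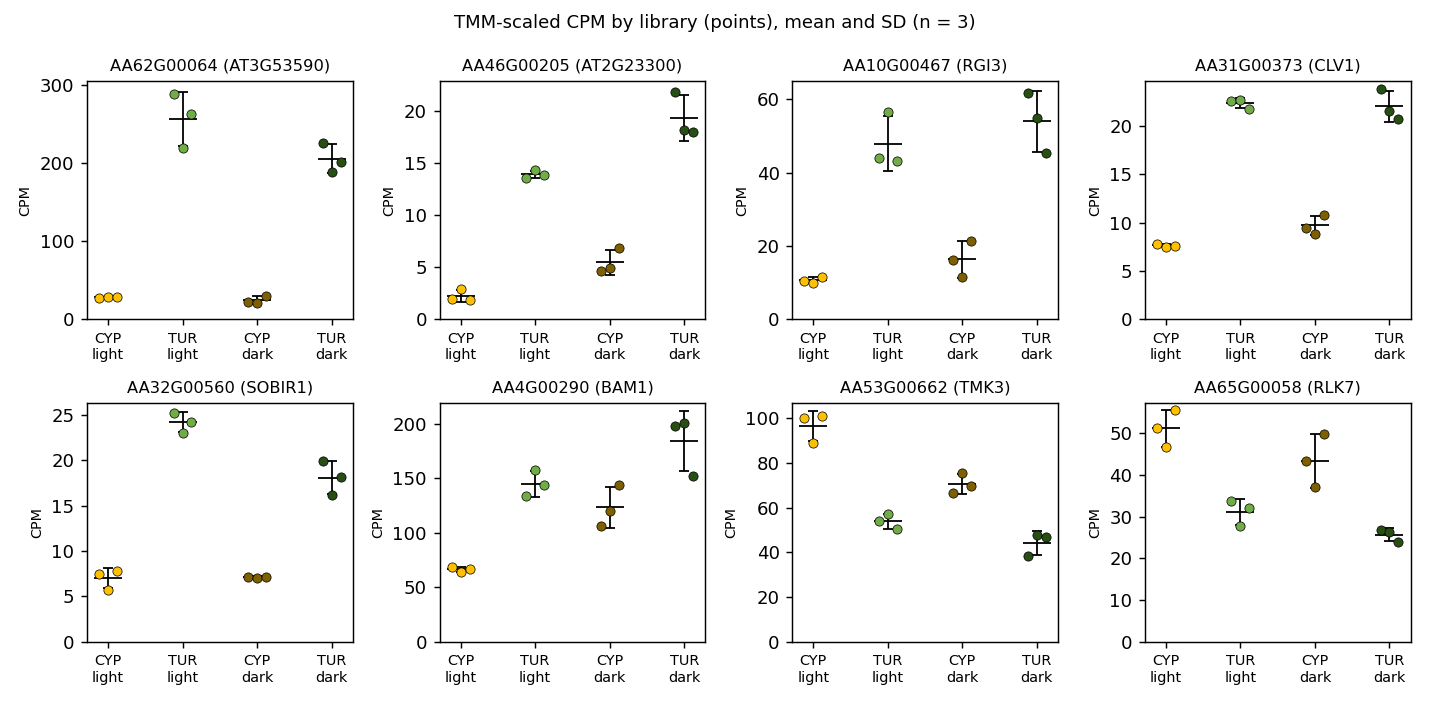
TMM-scaled CPM of 8 LRR receptor kinase models in each library (points) with the mean and SD of each group (horizontal and vertical lines, n = 3), groups from left to right CYP light, TUR light, CYP dark and TUR dark, each panel on its own linear axis from 0. AT3G53590, AT2G23300, RGI3, CLV1, SOBIR1 and BAM1 lie lower in CYP than in TUR under both conditions, and TMK3 and RLK7 higher, with no overlap.

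Among the 9 tested receptors of growth peptides, 7 were lower and 1 higher in CYP in light, and 3 lower and 1 higher in darkness. Over all tested models 27.8% were lower and 24.9% higher in light, and 22.1% and 22.4% in darkness. Over all tested receptor kinases 59.2% were lower in light and 47.2% in darkness. The median log2 fold change was -0.54 in light and -0.27 in darkness. All 5 tested models of the RGI receptors, which bind root meristem growth factor peptides in Arabidopsis, were lower in CYP in light. RGI3 (AA10G00467) differed most, with 10.5, 9.93 and 11.5 CPM in CYP light, 43.9, 56.5 and 43.2 CPM in TUR light, 16.1, 11.5 and 21.4 CPM in CYP dark and 61.8, 55.0 and 45.3 CPM in TUR dark libraries. These groups did not overlap between accessions, and CYP was 4.46-fold lower in light and 3.35-fold lower in darkness (adjusted p = 8.53e-09 and 1.93e-07, edgeR). RGI4 (AA25G00136) was lower in CYP in both, with log2 fold changes of -0.60 in light and -0.63 in darkness, as was RGI1 (AA186G00001), with -0.80 and -0.27. RGI5 (AA54G00143) and RGI2 (AA78G00013) were called in light alone, at -0.54 and -0.33. The dark call of RGI1 and the light call of RGI2 each ended when any of 5 single libraries was left out.

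The 2 receptors of C-terminally encoded peptides, which report nitrogen shortage between organs, went opposite ways in light. CEPR1 (AA313G00001) had 1.99, 1.97 and 3.51 CPM in CYP light and 5.25, 6.36 and 7.93 CPM in TUR light libraries and was lower in CYP (-1.37 ± 0.24). CEPR2 (AA31G00143) had 11.4, 11.4 and 12.0 CPM in CYP light and 6.52, 6.86 and 5.59 CPM in TUR light libraries and was higher in CYP (0.88 ± 0.16). Neither pair of groups overlapped in light, and neither gene was called in darkness, where the differences were -0.42 for CEPR1 and 0.43 for CEPR2. HAE (AA102G00006), the receptor that triggers shedding of floral organs, was higher in CYP in darkness (0.53 ± 0.17), a call lost without either of 2 libraries, and not called in light (0.11). PSY1R (AA31G00708), the receptor-like kinase linked to the sulfated peptide PSY1, was lower in CYP in light (-0.41 ± 0.10) and not called in darkness (-0.14).

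Of 7 tested receptors of immunity, 2 were lower and 1 higher in CYP in light, and 1 was lower and 2 higher in darkness, counts near the shares of all tested models (27.8% lower and 24.9% higher in light, 22.1% and 22.4% in darkness). Their median log2 fold change was 0.12 in light and -0.04 in darkness. SOBIR1 (AA32G00560), the kinase partner of LRR proteins that lack a kinase of their own, had 7.48, 5.74 and 7.82 CPM in CYP light, 25.3, 23.1 and 24.3 CPM in TUR light, 7.19, 7.06 and 7.14 CPM in CYP dark and 19.9, 16.2 and 18.1 CPM in TUR dark libraries. The CYP libraries stayed within a narrow band well below all TUR libraries, with log2 fold changes of -1.78 ± 0.13 in light and -1.34 ± 0.14 in darkness. The flagellin receptor FLS2 (AA56G00048) was lower in CYP in light, at 5.54 ± 1.20 CPM against 11.6 ± 0.979 CPM in TUR (SD, n = 3 each), and did not pass in darkness (-0.44 ± 0.19, adjusted p = 0.0638, edgeR).

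RLK7 (AA65G00058), a peptide receptor described in Arabidopsis for an effect on the speed of germination as well as in immunity, was higher in CYP under both conditions. Its libraries held 51.2, 46.7 and 55.5 CPM in CYP light, 33.8, 27.7 and 32.0 CPM in TUR light, 43.2, 37.0 and 49.7 CPM in CYP dark and 26.8, 26.3 and 24.0 CPM in TUR dark seeds. All CYP libraries lay above all TUR libraries, 1.63-fold in light and 1.68-fold in darkness (adjusted p = 4.31e-05 and 5.07e-05, edgeR). NILR1 (AA31G00512), which takes part in responses to nematodes in Arabidopsis, was higher in CYP in darkness (1.22 ± 0.34) and not called in light (0.71 ± 0.30, adjusted p = 0.0547, edgeR). MIK2, BIR2 and BIR3, which detect or restrain immune signals, were not called in either condition. Their log2 fold changes in light and in darkness were 0.12 and -0.04 for MIK2 (AA43G00120), -0.17 and -0.23 for BIR2 (AA53G01051), and 0.26 and 0.21 for BIR3 (AA39G00590).

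Of the coreceptors, 3 models were tested. CIK2 (AA22G00064), which works with CLV1 in Arabidopsis, had 2.55, 3.17 and 2.63 CPM in CYP light and 10.9, 14.0 and 11.3 CPM in TUR light libraries, and was 4.30-fold lower in CYP in light and 2.87-fold lower in darkness, without overlap. Its relative CIK3 was matched by AA102G00196, a model of 4717 bases, and by the short model AA22G00065 of 369 bases that directly follows CIK2. AA102G00196 was higher in CYP in darkness (0.46 ± 0.14) and not called in light (-0.20 ± 0.13), and its dark call was lost without CYP dark replicate 3 (adjusted p = 0.0516). AA22G00065 was lower in CYP, with log2 fold changes of -3.54 in light and -1.04 in darkness, but held only 218 counts over all libraries, with 2 CYP libraries at 1 CPM, so that its direction between accessions was set by the filter, and its dark call was lost without CYP dark replicate 1 or CYP dark replicate 3. Near-identical copies could share reads here, so which copy a read came from is uncertain for such pairs.

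The TMK kinases, which take part in auxin signalling at the cell surface, held the receptor kinase of highest RPKM (reads scaled to library size and model length) among those called higher in CYP. TMK3 was matched by 2 models that differed in opposite directions. AA53G00662 had 100.1, 88.9 and 101 CPM in CYP light, 54.2, 57.2 and 50.6 CPM in TUR light, 66.6, 75.7 and 69.6 CPM in CYP dark and 38.3, 47.6 and 46.8 CPM in TUR dark libraries. It was higher in CYP without overlap, 1.79-fold in light and 1.60-fold in darkness (adjusted p = 1.57e-06 and 3.73e-05, edgeR). The second, scarcer model AA119G00018 was lower in CYP in light, at 3.61 ± 0.695 CPM against 7.08 ± 1.81 CPM in TUR (SD, n = 3 each), and was not called in darkness (-0.36). TMK4 (AA78G00034) was lower in CYP under both conditions, at 47.7 ± 2.01 CPM against 101 ± 2.08 CPM in TUR in light and 63.8 ± 7.80 against 108 ± 11.4 CPM in darkness.

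Of 8 further named receptor kinases, 4 were lower in CYP in light and 4 in darkness, and none was higher. Among all tested models 27.8% were lower and 24.9% higher in light, and 22.1% and 22.4% in darkness. Among all tested receptor kinases 59.2% were lower in light and 47.2% in darkness. GHR1 (AA57G00301), needed for stomatal closure in Arabidopsis, had 41.8, 40.1 and 47.7 CPM in CYP light and 82.9, 97.7 and 87.8 CPM in TUR light libraries, a 2.07-fold lower level without overlap. In darkness GHR1 had 60.6, 67.2 and 80.3 CPM in CYP and 94.6, 93.5 and 72.7 CPM in TUR libraries, which overlapped, and its call there (-0.33) was lost without any of 4 single libraries. RUL1 (AA35G00005), a regulator of cambium activity, was called lower in light alone (-1.52 ± 0.25, against -0.60 ± 0.24 in darkness). MRH1 (AA57G00146), required for root hair shape, was lower in CYP, with log2 fold changes of -0.74 in light and -0.52 in darkness, and its dark call was lost without CYP dark replicate 1. FEI1 (AA53G00008), which acts in cell wall synthesis, was lower in both (-0.49 and -0.48), and HPCA1 (AA84G00023), which senses hydrogen peroxide outside the cell, was called lower in darkness alone (-0.42), a call lost without any of 5 single libraries. The pollen receptor kinase PRK1 (AA717G00001) was lower in both (-1.01 and -0.88). The 3 models matching SUB, an atypical kinase of organ shape and root hair patterning, were not called in either condition.

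The remaining 79 models were on no list of roles. In light 47 of them were lower and 7 higher in CYP, and in darkness 42 were lower and 6 higher. Over all tested models 27.8% were lower and 24.9% higher in light, and 22.1% and 22.4% in darkness. Over all 125 tested receptor kinases 59.2% were lower in light and 47.2% in darkness. By the rule that asked for a call and separated libraries in both conditions and at least 5 CPM in 1 group, only 4 receptor kinases were higher in CYP: TMK3 (AA53G00662), RLK7, AA32G00796 (AT2G28990) and AA571G00003 (AT1G67510). AA571G00003 had log2 fold changes of 0.62 ± 0.13 in light and 0.60 ± 0.13 in darkness. AA32G00796 had 5.25, 6.08 and 5.63 CPM in CYP light, 2.32, 1.75 and 3.48 CPM in TUR light, 4.99, 5.98 and 7.75 CPM in CYP dark and 2.31, 1.41 and 2.56 CPM in TUR dark libraries, with log2 fold changes of 1.12 ± 0.25 in light and 1.53 ± 0.27 in darkness. The fifth model called higher in both, AA123G00022 (AT2G16250), was below that level, with at most 1.85 CPM in a group mean, and had log2 fold changes of 1.89 and 1.52. No TUR library reached 1 CPM, so its direction was set by the filter. It was named after its values were seen.

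Receptor kinases often lie in tandem arrays, and 57 of the 179 models formed 20 runs of consecutive numbers. 8 runs held at least 2 tested models. Numbers are those of the deposited model names, and no coordinates were used here. In the run AA32G00794 to AA32G00797, neighbours differed in opposite directions. AA32G00794 (AT2G29000) was lower in CYP, with 6.77, 7.11 and 8.12 CPM in CYP light and 21.4, 17.8 and 18.4 CPM in TUR light libraries (-1.39 ± 0.14), and a log2 fold change of -1.78 in darkness. AA32G00796, given above, was higher in CYP, while AA32G00795 (-0.21 and -0.13) and AA32G00797 (0.19 and -0.08) between and beside them were not called. In the run AA96G00003 and AA96G00004 both models were lower in CYP. AA96G00004 (AT3G47110) had 1.11, 1.03 and 1.32 CPM in CYP light and 5.47, 6.36 and 5.82 CPM in TUR light libraries (-2.32 ± 0.29, and -1.93 ± 0.30 in darkness). AA96G00003 (AT3G47580) differed by -1.81 ± 0.39 in light and -2.00 ± 0.46 in darkness. Models AA40G00450 and AA40G00451, both matching AT5G16590, were lower in CYP, with log2 fold changes of -0.68 and -0.58 in light and of -0.48 and -0.54 in darkness. The pair AA16G00121 (AT3G47570) and AA16G00122 (AT3G47580) differed from each other. AA16G00121 was higher in CYP in light (0.91 ± 0.30), a call lost without 1 library, and AA16G00122 was lower in light (-1.72 ± 0.60) and in darkness (-2.27 ± 0.72), with calls that were lost without any of 3 libraries in light and any of 2 in darkness. AA16G00122 held only 87 counts and no CYP library reached 1 CPM, so its direction was set by the filter, as was that of AA96G00003, with 2 such CYP libraries.

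**Figure D4:**
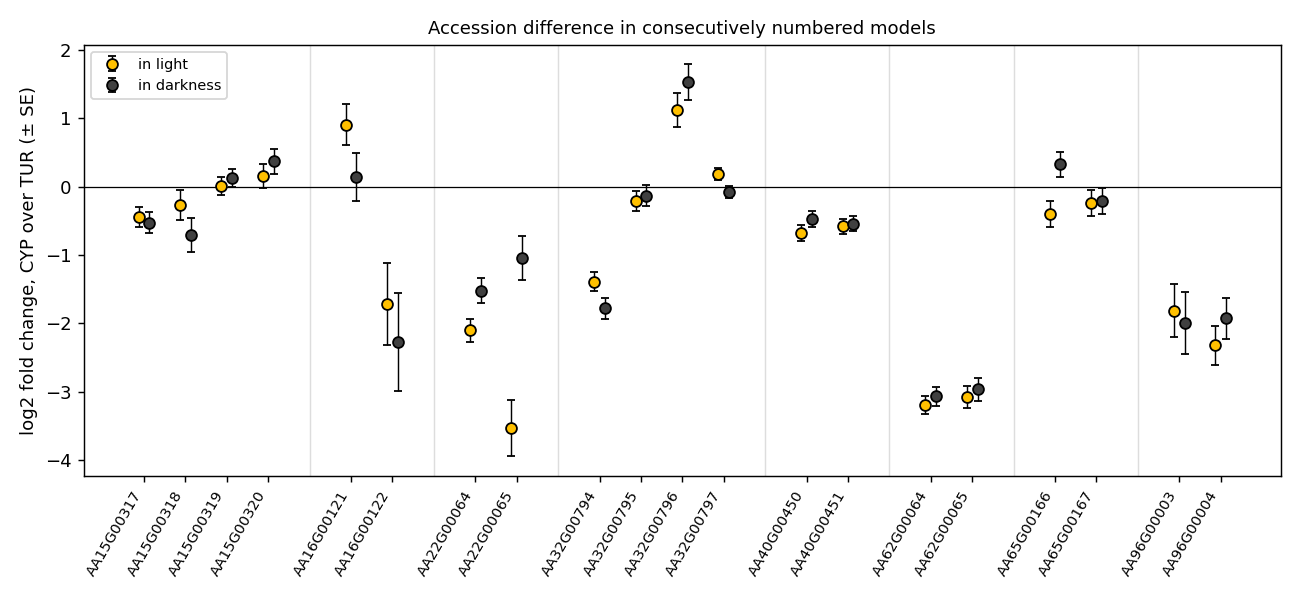
Log2 fold change, CYP over TUR, with its standard error, in light (yellow, left of each pair) and in darkness (dark grey) for the tested models of the 8 runs of consecutively numbered LRR receptor kinase models, runs separated by vertical lines. Both models of AT3G53590 lie near -3, and the run of AA32G00794 holds both AA32G00794 at -1.39 and AA32G00796 at 1.12 in light.

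On the per-length scale (RPKM computed from the counts and TMM-scaled library sizes), receptor kinases were present at modest levels. No model averaged above 100 RPKM over the 12 libraries, and 13 averaged below 1 RPKM. RGI4 was the most abundant at 62.4 RPKM, with group levels of 54.0 in CYP light, 82.0 in TUR light, 44.7 in CYP dark and 68.8 RPKM in TUR dark seeds. It was followed by AA62G00065 at 38.3 RPKM, which rests on the TUR libraries (8.78 RPKM in CYP light against 74.2 in TUR light). AA40G00451 (AT5G16590) averaged 36.0 RPKM, AA54G00264 (AT4G23740) 35.1 RPKM and AA19G00128 (AT1G04210) 33.5 RPKM. AA54G00264 was called in none of the 5 comparisons, with fold changes between accessions of -0.05 in light and 0.05 in darkness on the log2 scale. AA19G00128 differed by -0.23 and -0.24, and both calls were lost without any of 7 single libraries.

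In CYP seeds more receptor kinases were lower than higher in light, relative to darkness. In CYP, 36 of the 125 models were called lower in light than in darkness and 4 higher, where 14.3% of all tested models were called lower and 10.6% higher. In TUR, 11 were called lower and 5 higher, where 9.22% of all tested models were called lower and 9.17% higher. Leaving out the models whose direction between accessions the filter set, 35 of 118 were lower and 4 higher in CYP, and 11 lower and 5 higher in TUR. The median log2 fold change, light over dark, of the receptor kinases was -0.19 in CYP and 0.01 in TUR, against -0.01 and 0.00 over all tested models. By at least 2-fold, 9 models were called lower and 0 higher in CYP, where 3.99% and 2.16% of all tested models were, and none in TUR. In both accessions 9 models were called lower, where 5.98% of all tested models were. In CYP alone 27 were lower and in TUR alone 2, where 8.37% and 3.24% of all tested models were. The 4 called higher in CYP and the 5 called higher in TUR were different models. Without CYP dark replicate 3, 30 models were called lower and 9 higher in CYP, and 13 lower and 10 higher in TUR. In the TUR comparison that library enters only through the shared estimate of spread and the scaling of the libraries.

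The largest falls in light in CYP were those of AA46G00205 (-1.27 ± 0.22), AA65G00143 (AT1G10850, -1.20 ± 0.15), PXY (-1.15 ± 0.20), AA30G00136 (AT4G36180, -1.13 ± 0.12) and IRK (-1.11 ± 0.16), among models that passed the rule for level and separation. PXY had 3.10, 4.02 and 3.22 CPM in CYP light and 8.69, 6.82 and 7.30 CPM in CYP dark libraries, which did not overlap (adjusted p = 0.000351, edgeR). In TUR, PXY had 5.62, 4.74 and 6.05 CPM in light and 8.38, 8.11 and 5.82 CPM in darkness, which overlapped narrowly and did not pass (-0.42 ± 0.19, adjusted p = 0.124, edgeR). MIK1 (AA102G00022), a receptor known from pollen tube guidance, fell in both accessions. Its libraries had 16.8, 16.4 and 17.3 CPM in CYP light against 32.9, 30.8 and 38.8 CPM in CYP dark seeds, and 22.6, 28.6 and 24.9 CPM in TUR light against 42.4, 44.7 and 38.5 CPM in TUR dark seeds. Light and dark libraries did not overlap in either, with log2 fold changes of -1.01 ± 0.12 in CYP and -0.73 ± 0.11 in TUR (adjusted p = 3.95e-06 and 0.000125, edgeR). AA30G00136 also fell in both (-1.13 in CYP and -0.55 in TUR), as did AA21G00274 (AT2G45340, -0.59 and -0.62) and AA40G00451 (-0.54 and -0.50). AA31G00695 (AT1G72460) was called lower in both (-0.61 and -0.58), but lost the call in TUR without any of the 5 libraries TUR dark 1 and 2 and TUR light 1 to 3, and in CYP without CYP dark 3 or CYP light 2.

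Among the lists, BAM1 fell in light in CYP (-0.89 ± 0.12), and so did TMK4 (-0.41 ± 0.10). Of the growth peptide receptors, RGI1 (-0.56), RGI2 (-0.40), RGI3 (-0.60) and CEPR1 (-0.90) fell in CYP and CEPR2 rose, and in TUR none of the 9 fell and PSY1R rose. The falls of RGI2, RGI3 and CEPR1 lost their calls without any of 3, 4 and 3 single libraries in turn, and that of RGI1 held without each library. No immune receptor of the 7 was called between light and darkness in CYP, and FLS2 and SOBIR1 rose in light in TUR. Over all tested models 14.3% were lower and 10.6% higher in light in CYP, and 9.22% and 9.17% in TUR. Over all tested receptor kinases 28.8% were lower in light in CYP and 8.8% in TUR. The lists were not tested against these shares. The receptor kinases higher in CYP light than in CYP dark seeds were AA22G00098 (AT2G24230, 0.57 ± 0.15), CEPR2 (0.56 ± 0.16), AA26G00198 (AT3G14840, 0.46 ± 0.13) and TMK3 (0.45 ± 0.10). Of these, TMK3 kept its call when any single library was left out, AA22G00098 lost it without CYP light replicate 3, CEPR2 without CYP dark replicate 2, and AA26G00198 without CYP dark replicate 2 or CYP light replicate 1.

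The 5 receptor kinases higher in light in TUR were FLS2 (0.51 ± 0.17), AA53G01365 (AT1G63430, 0.50 ± 0.16), SOBIR1 (0.42 ± 0.12), CIK3 (AA102G00196, 0.40 ± 0.14) and PSY1R (0.35 ± 0.10). FLS2 had 12.0, 12.3 and 10.5 CPM in TUR light and 6.84, 9.15 and 8.45 CPM in TUR dark libraries, with no overlap (adjusted p = 0.0405, edgeR). Each of the 5 lost its call when some single library was left out. The count of 5 became 10 without CYP dark 3, 3 without CYP light 3, 2 without TUR dark 1 or TUR light 2, 1 without TUR dark 3, and 0 without TUR dark 2, TUR light 1 or TUR light 3. The count of 11 lower in TUR became 6 without TUR dark 1, TUR dark 2 or TUR light 1.

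The light responses of the accessions were compared by their difference, CYP minus TUR. 8 of the 125 receptor kinases passed, all with the lower value in CYP, where 2.24% of all tested models passed, 1.83% lower and 0.408% higher. Leaving out the models whose direction between accessions the filter set, 7 of 118 passed, all lower. None was called higher, by edgeR or by DESeq2, and 31 (24.8%) passed at an unadjusted p under 0.05, as did 13.6% of all tested models. The median difference was -0.21 for the receptor kinases and -0.03 for all tested models. AA65G00143 (AT1G10850) had 6.29, 8.99 and 5.56 CPM in CYP light and 16.7, 16.0 and 14.7 CPM in CYP dark libraries. In TUR the same model had 20.6, 21.1 and 22.5 CPM in light and 25.8, 22.9 and 23.2 CPM in darkness. Light and dark libraries were separate in both accessions, with a wider gap in CYP, and the difference of the responses was -1.04 ± 0.20 (adjusted p = 0.00923, edgeR).

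IRK (AA61G00109, AT3G56370), named in Arabidopsis for its expression in inflorescence and root tips, had 6.45, 7.28 and 8.26 CPM in CYP light and 16.4, 16.8 and 14.4 CPM in CYP dark libraries, against 18.7, 21.8 and 14.2 CPM in TUR light and 19.5, 20.9 and 19.4 CPM in TUR dark libraries. It fell in CYP without overlap and was not called in TUR, a difference of -0.97 ± 0.21 (adjusted p = 0.0206, edgeR). PXC1 (AA60G00135, AT2G36570), which acts in secondary wall formation, had 6.13, 10.3 and 8.41 CPM in CYP light and 11.5, 14.6 and 17.0 CPM in CYP dark libraries, against 13.9, 14.5 and 18.7 CPM in TUR light and 13.5, 12.6 and 10.5 CPM in TUR dark libraries. Its fitted values lay in opposite directions, -0.78 in CYP, which was called, and 0.37 in TUR, which was not, a difference of -1.15 ± 0.26 (adjusted p = 0.0265, edgeR). GHR1 fell in light in CYP (-0.68) and was not called in TUR (0.04), a difference of -0.72. The remaining 4 were AA22G00065, AA31G00388, AA32G00988 (AT2G26730) and AA41G00014 (AT5G51560), with differences of -2.50, -1.12, -0.82 and -0.86. GHR1, AA22G00065 and AA32G00988 lay outside the rule for naming in this comparison and were named after their values were seen.

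None of the 8 calls held without every single library. AA31G00388 lost its call without any of the 12 libraries, and also under DESeq2 size factors, upper-quartile scaling, no filter, the replicate block and both limma fits on RPKM computed from counts. GHR1 and AA41G00014 lost it without any of 8 libraries, AA22G00065, AA32G00988 and PXC1 without any of 7 and IRK without any of 5. Among single libraries, AA65G00143 lost it only without CYP light replicate 1 (adjusted p = 0.0548, edgeR). Each of the 8 also lost its call under some other setting. GHR1 and AA41G00014 lost it under both limma fits and the replicate block, and IRK and AA32G00988 under both limma fits. PXC1 lost it with limma on log2(RPKM + 1), and AA22G00065 and AA65G00143 with limma on log2(RPKM + 5). The count of 8 became 7 without CYP dark 3, 4 without TUR light 3, 3 without CYP dark 2, 2 without CYP light 2, TUR dark 2 or TUR light 1, 1 without TUR dark 3 or TUR light 2, and 0 without CYP light 1.

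**Figure D5:**
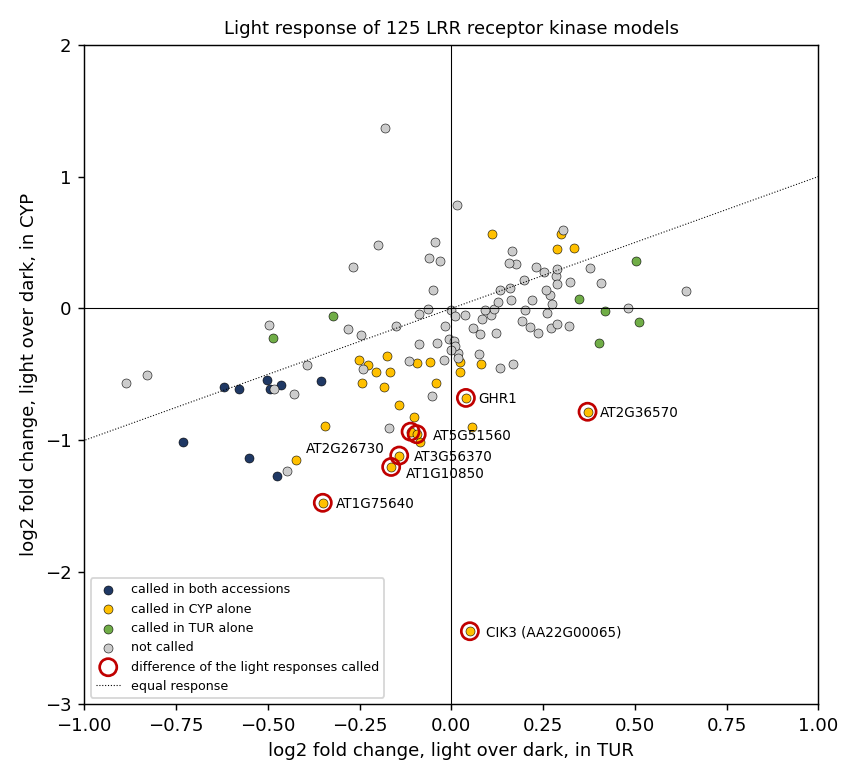
Log2 fold change, light over dark, of the 125 tested LRR receptor kinase models in TUR (horizontal) and CYP (vertical) seeds, coloured by the accession in which the model was called, with the 8 models whose responses differed between accessions circled in red and a dotted line where both responses are equal. The 8 circled models lie below the dotted line, at -2.45 (AA22G00065) to -0.68 (GHR1) in CYP.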

How the data were processed

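RNA was taken from whole imbibed seeds. Libraries came from poly(A) RNA by the Lexogen SENSE kit, per the labels' protocols. The tools listed in the submitters' processing notes are Bowtie2 2.2.3, HTSeq 0.6.1, Trimmomatic and bcl2fastq 2.17.1, with TAIR10 as the build. Neither the genome release behind the models nor the strand setting of the counting is given here, so reads of antisense or overlapping genes cannot be told apart. Per the file headers, the authors deposited raw counts and RPKM values per gene model and library, with model length and Arabidopsis match. RPKM deposited by the authors for the CYP libraries follows from their counts, and that for TUR does not. The counts were used throughout, but whether the TUR counts or the TUR RPKM are the authors' final values is not known here. This bears on every CYP against TUR value, on light against darkness in TUR and on the difference of the light responses.

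Models with at least 1 CPM in at least 3 libraries were tested in edgeR 4.0.16 (R 4.3.3, TMM scaling, quasi-likelihood test on 4 group means over all 12 libraries, Benjamini-Hochberg adjustment over 15671 models within each of 5 comparisons). A model was called at an adjusted p under 0.05, and adjusted p-values and SE come from this test. CPM values are TMM-scaled, and RPKM here are computed from the counts. Alternatives used DESeq2 1.42.0 and limma 3.58.1. On simulated counts of 15671 models, 73% of 1.5-fold changes between CYP and TUR were recovered in each condition, and 98% of 2-fold changes in light and 97% in darkness. Only a small share of models was changed there, all at 5 CPM or more and evenly up and down. Recovery was therefore not measured for scarcer models or for changes as widespread as in the data. Of 181 calls in light 10 fell on unchanged models, and of 183 in darkness 13.

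The members, lists and tests were chosen with earlier results of these data known. The text names the models with the largest called, non-overlapping differences at 5 CPM or more (up to 10 each way between accessions, 5 each way for light), up to 5 each way for the difference of light responses, the 5 of highest RPKM, up to 4 of each list, and, beyond that, members of the lists and runs as examples.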

Additional observations from a re-analysis of the deposited data

Results flagged for a closer look

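For 8 LRR receptor kinases the light response differed between the accessions in edgeR's test of that difference. The log2 difference, CYP minus TUR, was -2.50 for the 369-base CIK3-matching model AA22G00065 (adjusted p = 0.0257, edgeR), -1.15 for PXC1 (AA60G00135), -1.12 for AA31G00388 and -1.04 for AA65G00143. It was -0.97 for IRK (AA61G00109), -0.86 for AA41G00014, -0.82 for AA32G00988 and -0.72 for GHR1 (AA57G00301). AA41G00014 had 7.88, 6.94 and 9.58 CPM in CYP light and 17.1, 14.5 and 15.8 CPM in CYP dark libraries, against 15.1, 19.5 and 15.3 CPM in TUR light and 18.7, 15.3 and 18.6 CPM in TUR dark libraries. AA32G00988 had 6.37, 6.94 and 7.53 CPM in CYP light and 12.3, 14.7 and 12.9 CPM in CYP dark libraries, against 18.3, 23.1 and 18.1 CPM in TUR light and 22.8, 21.5 and 19.5 CPM in TUR dark libraries. Both were lower in CYP light than in every other group, without overlap. AA22G00065 had 8 counts in the CYP light libraries together and 30 in the CYP dark libraries, against 89 in TUR light and 91 in TUR dark libraries. Only 2 CYP libraries reached 1 CPM, so AA22G00065 passed the level filter through its TUR libraries.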

How the results depend on the processing

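No result named above changed direction under any alternative. The accession counts stayed within 1.5 times of their values under DESeq2, DESeq2 size factors, upper-quartile scaling, no filter, a filter at 5 CPM, limma on log2(RPKM + 1) and on log2(RPKM + 5), and a replicate block. Neither the accession differences nor the difference of light responses was checked on the deposited RPKM, whose TUR values do not follow from the counts. For light in TUR, the 5 models called higher became 3 with DESeq2, 9 with limma on log2(RPKM + 5) and 0 with limma on log2(deposited RPKM + 1), an alternative chosen after seeing the data. For light in CYP, the 4 called higher became 7 with either of these limma fits. The 8 lower in the difference of light responses became 2 with limma on log2(RPKM + 1), 1 with log2(RPKM + 5) and 5 with the replicate block. The cause was not tested. Replicate numbers share no stated source across groups and the deviations of same-numbered libraries correlated between -0.35 and 0.18, so pairing was not established, and the block moved no other count by over 1.5 times. Leaving out 1 library at a time gave 9 to 12 higher and 69 to 76 lower in CYP in light, 6 to 14 higher and 45 to 62 lower in darkness, 3 to 9 higher and 26 to 41 lower for light in CYP, 0 to 10 higher and 6 to 15 lower for light in TUR, and 0 to 7 lower and 0 higher for the difference. Of 78 named models, 56 were called between accessions in light and 10 of these lost the call without some library, as did 13 of 45 in darkness, 8 of 28 for light in CYP, 9 of 13 for light in TUR and all 8 for the difference. Depth limits the scarce models, such as EMS1 and AA22G00065. Near-identical copies may have split reads.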

Other observations

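Other named LRR receptor kinases have Arabidopsis descriptions that lack one of the words searched for. Of 31 such tested models, 18 were called lower and 5 higher in CYP than in TUR in light, and 13 lower and 6 higher in darkness, where 27.8% and 24.9% of all tested models were in light, and 22.1% and 22.4% in darkness. NIK2 (AA53G00796), known from antiviral defence, differed by -1.77 in light and -1.76 in darkness on the log2 scale. PSKR1, the receptor of the peptide phytosulfokine, was matched by AA46G00192, which was lower in CYP in both conditions (-1.10 and -1.47), and by AA53G00697, which was called lower in light alone (-0.35, against -0.02 in darkness). The related PSKR2 (AA11G00053) was higher in CYP in both (0.70 and 0.35). The widest difference towards CYP was that of SRF8 (AA57G00423), at 1.49 in light and 1.12 in darkness. The shared coreceptor BAK1 was matched by 3 tested models, none of which was called between accessions in either condition, while SERK1 (AA31G00108), a close relative, was higher in CYP in both (0.32 and 0.58).

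Few genes of the ligands were measured: of 29 loci on the list, 6 models were present and 5 tested. In CYP, 3 of the 5 were called higher and 2 lower in light, and 3 higher and 1 lower in darkness. Over all tested models 24.9% were higher and 27.8% lower in light, and 22.4% and 22.1% in darkness. In CYP, ALE1 (AA53G01432), a protease that acts in embryo cuticle formation, was higher by 1.32 in light and 1.30 in darkness on the log2 scale. EPF1 (AA33G00352), a stomatal spacing peptide, was higher by 1.34 and 1.12, and TPST (AA233G00001), which adds sulfate to peptide hormones, by 0.67 and 0.50. EPFL9 (AA132G00003), a peptide that promotes stomata, was lower (-0.44 and -0.24), and PSK3 (AA72G00023), a phytosulfokine precursor, was lower in light (-2.55) and not called in darkness (-0.56). These lists were drawn up with earlier results of these data known.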
